A study of Mus musculus with 9 samples.

Results

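Small blood vessels of the embryonic mouse brain were compared with the brain tissue left after their removal, across every probe set that names 1 gene and reached a value of 4 on 3 or more of the 6 arrays. This rule kept 20108 of 34945 probe sets that name 1 gene, and they read 11755 genes. The other 14837 probe sets lay under the limit and were not tested. Both groups came from embryos of the NMRI strain at embryonic day 18.5, with 3 arrays each, 1 array per sample, and no treatment or altered allele named in the labels. One group is brain microvascular fragments, and the other is the brain tissue without those fragments, called rest of brain here. The labels call the samples of a group biological replicates and give no sex for the embryos. Sex-linked genes differed between pairs. Xist, the RNA of the inactive X chromosome, was at 14.6, 2.84 and 8.13 on fragments replicates 1, 2 and 3 and at 13.5, 2.84 and 6.52 in rest of brain, and the Y-linked Eif2s3y at 3.06, 11.9 and 11.9 and at 3.04, 11.4 and 11.3. In both tissues replicate 1 thus had Xist without Eif2s3y, replicate 2 the reverse, and replicate 3 both. The sources used here do not say how the fragments were isolated or whether embryos were pooled. For rest of brain replicate 3, one label names another embryonic day than its title and age do, and it was left in the group of its title. The samples with the same replicate number were taken as a pair.

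The values are levels on the log2 scale, computed with GCRMA, which corrects the background and normalizes across arrays, so a difference of 1 is a 2-fold difference. A level under 4 was read as background, and a gene that stayed below 4 throughout a group has a bound on its fold only, set against a level of 4. Such a gene passed the filter through the other group alone, so its difference was fixed by the filter and supports nothing further. In bulk tissue, fewer cells of a type and less RNA per cell cannot be told apart. A gene was read from its brightest tested probe set and called at a limma adjusted p under 0.05, and ± is the SE of the fit after a difference and the SD over 3 arrays after a mean.

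Brain capillaries are tubes of endothelial cells wrapped by pericytes and closed to most blood-borne molecules by the blood-brain barrier. At this stage the embryonic vessels still grow by sprouting, and endothelial identity is held by Ets, SoxF, GATA and forkhead transcription factors. The tissue around them holds neurons that are extending axons and building their first synapses, with the radial glia and progenitors that produce neurons and glia.

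The groups differed in most of what was measured. Of the probe sets, 6364 (31.6%) were higher in fragments and 7603 (37.8%) lower, 69.5% in all, and the 3 arrays of one group did not overlap those of the other for 75.9%. Of the genes, 3630 (30.9%) were higher and 4739 (40.3%) lower, 71.2% in all, and 77.5% had no overlap. At this background a call alone says little about a gene, and the size of a difference says more. Differences of at least 4-fold, as fitted, took in 1394 higher and 1760 lower genes, and at least 16-fold 525 and 754. With genes at background in 1 tissue held at their bound, 1339 and 1584 genes reached 4-fold and 461 and 590 reached 16-fold. Among genes at 4 or more on all 6 arrays these were 961 and 958, and 246 and 325. Among the higher genes 332 had rest of brain at background, and among the lower genes 711 had fragments there. The median difference over all genes was -0.12. A fitted difference of a gene with 1 or more arrays under 4 leans on background values. Every pair showed the sign of the call for 3626 higher and 4736 lower genes. Arrays that do not overlap fix the sign of every pair, as they did for 3615 and 4729 of these. The count of pairs is thus no separate support.

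**Figure D1:**
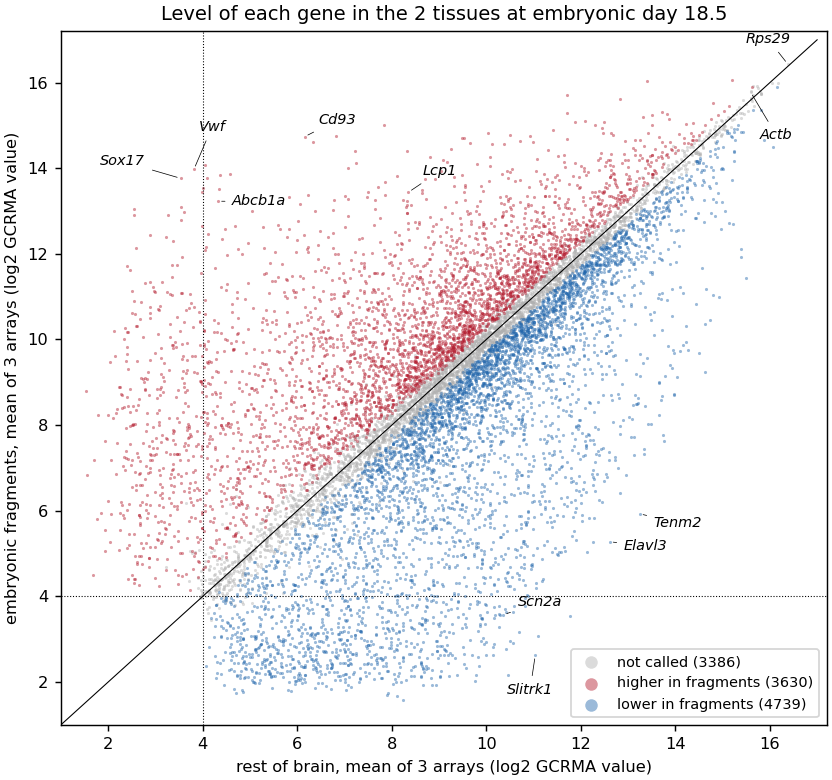
Each point is 1 of the 11755 genes, with its mean level in rest of brain on the horizontal axis and in embryonic fragments on the vertical axis (log2 GCRMA values, 3 arrays each). Red points are the 3630 genes called higher in fragments, blue points the 4739 called lower and grey points the 3386 not called, the solid line marks equal levels, and the dotted lines mark the level of 4 read as background.

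Among markers chosen for 12 cell types, those of vessels and of neural cells matched the tissue labels. Markers of macrophages and some of blood cells were higher in fragments too. The 8 endothelial markers were all higher in fragments, with a mean level of 12.4 to 12.7 on the fragment arrays and 4.39 to 4.75 on those of rest of brain, where Pecam1, Tie1 and Emcn were under 4 on every array. The 6 tested pericyte markers were higher too but stayed at a mean of 10.1 to 10.7 in rest of brain, against 12.7 to 13.1 in fragments. Cldn5 and Kdr, also endothelial, were at 6.82 to 8.39 in rest of brain. Neuronal markers (7 of 7 lower) had means of 5.69 to 6.78 against 11.8 to 12.04, and radial glia and progenitor markers (5 of 5 lower) 8.38 to 9.63 against 12.5 to 12.8. Fibroblast and meningeal markers were lower in fragments as well (6 of 6). Of 4 tested markers of choroid plexus and ependyma 0 were higher and 2 lower in fragments, Otx2 (difference -3.26) and Foxj1, which was at background there. Ttr, the plexus's secreted thyroxine carrier, was not called, at 15.7, 16.2 and 16.1 in fragments and 16.1, 16.2 and 16.2 in rest of brain. Microglia and macrophage markers were higher in fragments (6 of 6), with a summed level of 15.2 to 16.5 against 12.9 to 13.1. They were lowest on the array of fragments replicate 1, at a mean of 11.4 against 13.1 and 13.2. Smooth muscle markers were higher (3 of 3 tested), and astrocyte (3 of 3) and oligodendrocyte lineage markers (4 of 4) lower. Of 3 tested lymphocyte and neutrophil markers, Ptprc was higher (3.45) and S100a8 and S100a9 lower. Of 3 tested red cell and platelet markers, Pf4 (3.71) and Hbb-y, at background in rest of brain, were higher, and Alas2 was not called.

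**Figure D2:**
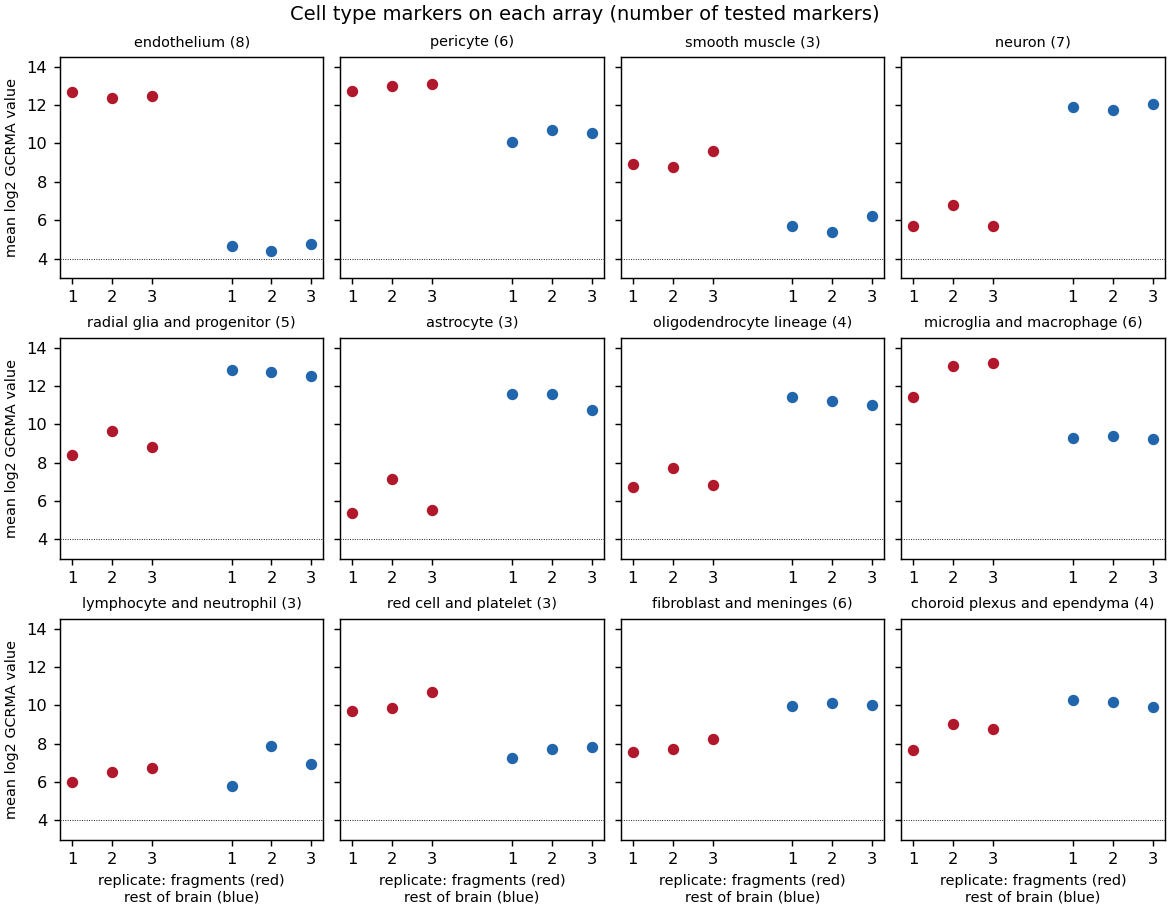
Each panel is a cell type, and each point the mean log2 GCRMA value of its tested markers on 1 array, red for the 3 embryonic fragment arrays and blue for the 3 arrays of rest of brain. Endothelial markers lie between 12.4 and 12.7 in fragments and between 4.39 and 4.75 in rest of brain, and the dotted line marks the level of 4 read as background.

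Genes at 4 or more on every array were given no bound, although several named below lay close to 4 in the tissue with less. Folds of those genes, such as Abcb1a, Prkch and Tmem130, still lean on values near background. The limit of 4 may not mark the background of every probe set. The ephrin Efna2 lay at 5.38, 5.37 and 5.38 in fragments, with an SD of 0.004. Mpped1, under 4 there, had the same SD, and whether Efna2 was at background was not tested. The largest difference in favour of vessels was that of Abcb1a, the efflux pump P-glycoprotein of the blood-brain barrier. It was at 13.3, 13.2 and 13.2 in fragments and 4.06, 4.16 and 4.75 in rest of brain, 480-fold higher (difference 8.91 ± 0.19, adjusted p = 4.34e-07). Cd93, a surface glycoprotein of endothelium, followed at 14.9, 14.6 and 14.8 against 6.64, 5.27 and 6.55, a 383-fold difference. Ctla2a, an inhibitor of cathepsin-type proteases, was 312-fold higher. Procr, the endothelial receptor for protein C, was 249-fold higher with a narrow spread in rest of brain (4.98, 5.002 and 5.13). Both the peptide apelin and its receptor were among the 10 largest, Aplnr at 244-fold and Apln at 175-fold. The 10 were completed by Osmr, the oncostatin M receptor (180-fold), the protein kinase Prkch (170-fold), Tdrp (164-fold) and the zinc finger factor Mecom (164-fold). The rule for these 10 took only genes whose groups did not overlap, so their separation describes the choice. Of all genes 77.5% had no overlap.

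The largest measured differences in the other direction were smaller at the top and led by genes of neurons. Elavl3, an RNA-binding protein of neurons, lay at 5.36, 6.04 and 4.43 in fragments and 12.6, 12.5 and 12.8 in rest of brain, 161-fold lower (difference -7.33 ± 0.39, adjusted p = 1.17e-05). Tenm2, a teneurin of synaptic adhesion, was 159-fold lower, at 4.84, 7.25 and 5.69 against 13.03, 13.2 and 13.5. Tmem130 (137-fold), Jakmip1, a microtubule-associated protein of neurons (129-fold), and Camta1, a calmodulin-binding transcription activator (98.1-fold), came next. Camta1 stood out by its spread, with 5.08, 5.11 and 4.97 in fragments. Cadps, which primes dense-core vesicles, the membrane protein Plppr1, the secreted Tafa2, the splicing regulator Celf5 and the adhesion receptor Adgrb3 were 89.6 to 96.0-fold lower. In all 10 of these genes the array of fragments replicate 2 was the highest of the 3. Of 325 genes at least 16-fold lower and at 4 or more on all 6 arrays, replicate 2 was highest among the fragment arrays for 265 (81.5%) and replicate 1 lowest for 246 (75.7%), with median levels of 5.67, 6.55 and 5.997 on replicates 1, 2 and 3. The summed neuronal marker level was 10.1, 10.9 and 10.4, and its part in these values was not tested. This sum is no separate evidence, since the markers Elavl3, Tubb3 and Stmn2 are also among the 325 genes. The mean of the 7 neuronal markers was 5.70, 6.78 and 5.69, lowest on replicate 3. The 246 genes at least 16-fold higher showed no such order in rest of brain, where each of the 3 arrays was lowest for 74 to 87 of them.

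Where rest of brain was at background the brightest vessel genes were Sox18, a SoxF transcription factor of endothelium, at 13.2, 12.99 and 13.1 in fragments and at least 548-fold higher, and the adhesion molecule Icam2, at 13.4, 12.98 and 12.8 and at least 531-fold. Erg, an Ets factor of endothelial identity, followed at 13.2, 12.6 and 13.1 and at least 503-fold. Cyyr1 (at least 484-fold), the adhesion receptor Adgrl4 (478-fold) and the SH2 adaptor She (442-fold) came close behind. Next were Sox7 (at least 349-fold), Unc45b, a chaperone of myosin known from striated muscle (336-fold), Ctla2b (317-fold) and Gimap4, a GTPase of lymphocytes and endothelium (283-fold). Unc45b lay at 12.8, 12.3 and 12.04 in fragments and 2.96, 2.95 and 3.73 in rest of brain. Of genes at background in fragments, Gria1, an AMPA receptor subunit, was at 10.99, 10.8 and 11.5 in rest of brain and at least 137-fold lower in fragments. Slitrk1, an adhesion protein of synapses, was at least 131-fold lower, with fragments at 2.61, 2.62 and 2.63. Nhlh2, a basic helix-loop-helix factor of young neurons, was at least 95.03-fold lower. The others were Lonrf2, the noncoding Dlx6os1, Mpped1, the branched-chain aminotransferase Bcat1, Tmem74, the sodium channel Scn2a and the ubiquitin ligase Hecw1, at least 72.8 to 94.0-fold lower.

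The promoters of a pair of these genes from each side are shown because they stand at the ends of the comparison, each a window of 300 bases around the most upstream start in RefSeq (GRCm38.p6). They are Erg (chr16:95586544-95586843, minus strand), Cyyr1 (chr16:85550324-85550623, minus strand), Slitrk1 (chr14:108914190-108914489, minus strand) and Nhlh2 (chr3:102009895-102010194, plus strand). None of the motifs searched occurs in these 4 windows, so they are in lower case throughout. Rpl35 (chr2:39005082-39005381, minus strand), a ribosomal protein gene, and Cfl1 (chr19:5490205-5490504, plus strand), which encodes the actin-severing protein cofilin, lay at like levels in both tissues and were chosen after the motif shares were seen. Capitals mark CCGGAAG, the core that Ets factors bind, or its reverse complement. Rpl35 and Cfl1 were picked by brightness from those like-level genes whose promoter holds it, so its presence there describes the choice.
Erg: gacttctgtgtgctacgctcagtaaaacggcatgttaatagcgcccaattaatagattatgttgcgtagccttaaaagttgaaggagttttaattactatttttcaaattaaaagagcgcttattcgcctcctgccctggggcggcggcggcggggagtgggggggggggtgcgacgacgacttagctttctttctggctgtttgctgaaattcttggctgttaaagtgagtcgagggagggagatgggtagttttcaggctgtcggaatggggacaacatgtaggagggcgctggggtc
Cyyr1: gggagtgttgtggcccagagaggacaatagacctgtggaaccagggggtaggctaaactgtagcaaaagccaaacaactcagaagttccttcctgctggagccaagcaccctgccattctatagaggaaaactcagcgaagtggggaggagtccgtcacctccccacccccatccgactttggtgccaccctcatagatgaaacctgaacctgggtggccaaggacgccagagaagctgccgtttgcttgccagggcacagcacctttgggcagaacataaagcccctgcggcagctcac
Slitrk1: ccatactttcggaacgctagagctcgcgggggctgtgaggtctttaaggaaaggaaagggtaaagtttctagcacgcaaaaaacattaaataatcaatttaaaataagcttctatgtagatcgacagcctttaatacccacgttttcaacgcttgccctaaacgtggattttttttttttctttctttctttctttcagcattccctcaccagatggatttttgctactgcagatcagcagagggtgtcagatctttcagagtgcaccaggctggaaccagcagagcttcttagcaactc
Nhlh2: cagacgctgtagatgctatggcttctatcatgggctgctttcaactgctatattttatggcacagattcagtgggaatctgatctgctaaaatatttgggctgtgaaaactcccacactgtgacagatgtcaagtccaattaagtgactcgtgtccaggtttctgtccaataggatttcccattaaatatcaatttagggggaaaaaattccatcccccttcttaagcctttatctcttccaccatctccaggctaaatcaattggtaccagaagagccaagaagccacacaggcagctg
Rpl35: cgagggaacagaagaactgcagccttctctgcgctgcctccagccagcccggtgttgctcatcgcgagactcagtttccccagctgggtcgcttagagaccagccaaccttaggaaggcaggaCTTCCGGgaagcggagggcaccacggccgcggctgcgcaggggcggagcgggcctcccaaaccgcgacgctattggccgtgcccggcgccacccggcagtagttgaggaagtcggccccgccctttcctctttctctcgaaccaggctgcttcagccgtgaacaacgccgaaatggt
Cfl1: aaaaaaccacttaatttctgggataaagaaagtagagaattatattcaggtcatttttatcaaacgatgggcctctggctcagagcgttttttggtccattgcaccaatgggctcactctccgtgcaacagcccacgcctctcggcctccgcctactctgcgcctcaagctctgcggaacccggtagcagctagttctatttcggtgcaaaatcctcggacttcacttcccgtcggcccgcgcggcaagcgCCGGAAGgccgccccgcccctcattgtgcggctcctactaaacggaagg

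CCGGAAG was more common in promoters of genes that differed little than in those at either end. It occurred on either strand in 6.72% of 1072 promoters of genes at least 4-fold higher in fragments and in 6.75% of 1349 promoters of genes at least 4-fold lower. The share was 20.03% for genes called at under 4-fold, 24.7% for genes not called and 29.4% (392 of 1333) for the like-level genes described further on. It was found in 18.01% of the 9506 promoters of all tested genes and in 9.14% of all 27025 promoters listed. Unlike the other classes, like-level genes had to reach a mean of 8 in both tissues, and the part of level in their share was not tested. The promoters differed in base composition too, with a median of 15 CpG in higher genes, 19 in lower genes and 22 in genes not called, and its part in the shares was not tested. The Erg promoter holds 16 CpG and that of Cyyr1 6, against 9 in Slitrk1, 2 in Nhlh2, 27 in Rpl35 and 22 in Cfl1. AACAAT, a core of Sox sites, was in 5.88% of promoters of higher genes, 6.30% of those of lower genes and 5.78% of all tested. The left and right parts of the site of Rest, a repressor of neuronal genes, were searched as TCAGCAC (5.88%, 5.11% and 4.49%) and GGACAGC (8.30%, 7.71% and 7.63%). CACGTG, the E-box, was in 6.996%, 7.71% and 10.1%. None of these motifs contains another, and a match is a description of the letters alone.

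The genes lower in fragments were also longer. Their genomic span in RefSeq (GRCm38.p6) had a median of 38.9 kb at 4-fold or more, against 26.5 kb for the genes at least 4-fold higher and 25.4 kb for all tested genes. A span of 100 kb or more was found for 30.3%, 16.3% and 15.3% of them. With the genes ranked by span and cut into 5 groups, 48.3% of the 2345 longest were lower in fragments and 37.9% of the 2346 shortest, while the share higher was 32.7% and 28.2%.

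Transcription factors of endothelial identity were higher without exception. Of 30 tested factors all were higher in fragments (background 30.9%), with a median difference of 5.11 (4.92 with members at background held at their bound) against -0.12 over all genes, and 8 of them had rest of brain at background. With 4 or more required on all 6 arrays, 21 were called higher. These factors were picked as endothelial, and all lists were chosen with earlier results of these data known, so such a count describes the choice. Over all genes 30.9% were higher and 40.3% lower, the shares to set beside each list count. The SoxF member Sox17 was brightest at 13.9, 13.7 and 13.7, and rest of brain lay under 4 on 2 of its 3 arrays (3.68, 2.602 and 4.31), so its fitted difference of 10.23 ± 0.41 leans on background values. Hhex, a homeobox factor of endothelial and blood precursors, was at least 161-fold higher. Fli1, the Ets factor nearest to Erg, was higher by 7.10 ± 0.15, and the forkhead factor Foxq1 by 7.10 ± 0.26. Members of the blood and endothelium complex, Tal1 (4.101), Lmo2 (5.05), Gata2 (5.96) and Lyl1 (at least 58.7-fold), all were higher. Lef1, the nuclear partner of beta-catenin in Wnt signalling, was at 10.98, 10.6 and 10.6 in fragments and 5.97, 6.56 and 6.57 in rest of brain (4.36 ± 0.20). At the low end were Hey1 (1.09 ± 0.21) and Nr2f2, the venous nuclear receptor (0.62 ± 0.17, adjusted p = 0.0161). Nr2f2 lost its call without rest of brain replicate 3 (0.58, adjusted p = 0.0554), and another probe set of it was called lower. Meox2 was under the filter.

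**Figure D3:**
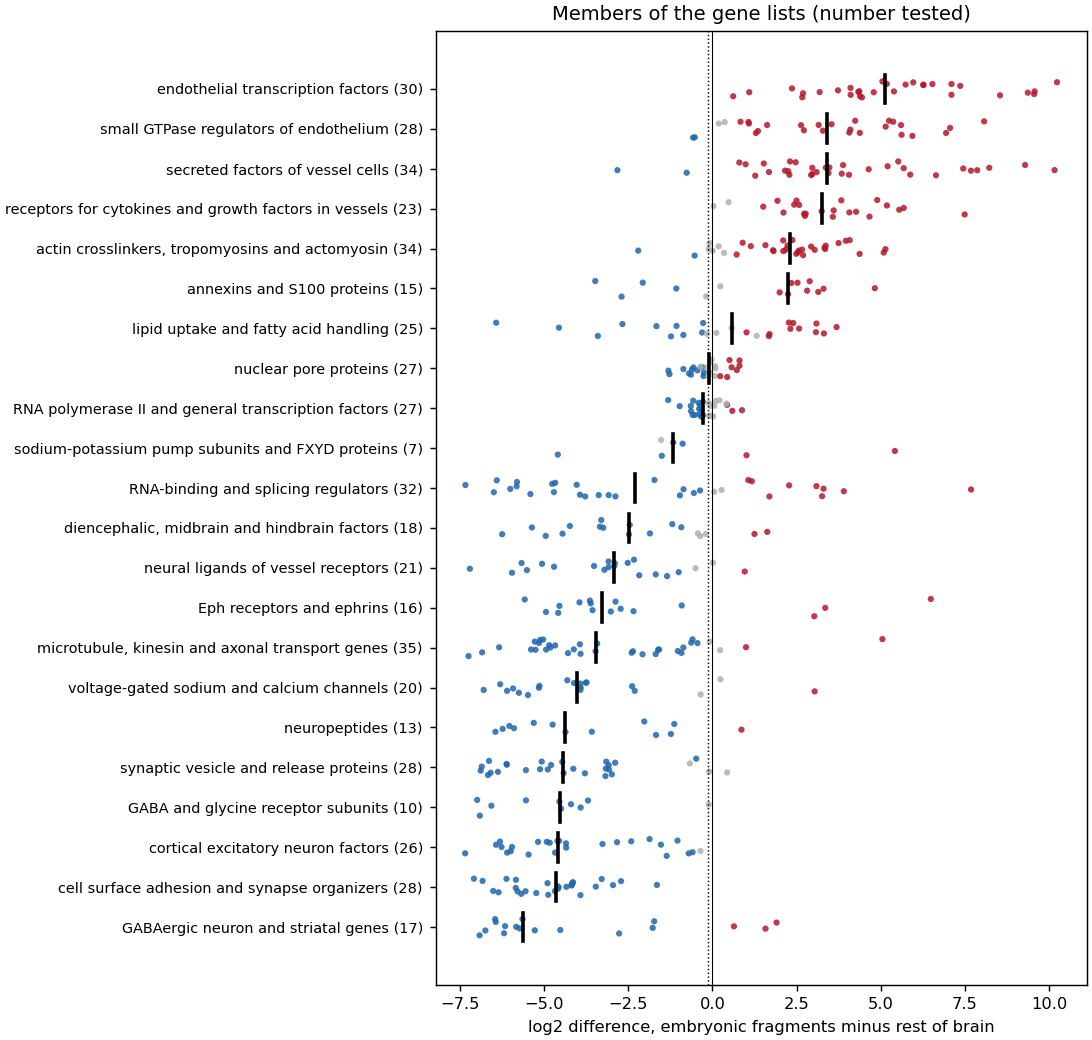
Each row is a gene list with its number of tested members, each point a member's log2 difference between embryonic fragments and rest of brain, red where called higher, blue where called lower and grey where not called. Black bars mark list medians, from 5.11 for endothelial transcription factors to -5.64 for GABAergic neuron and striatal genes as fitted (4.92 and -4.53 with members at background held at their bound), and the dotted line marks the median of -0.12 over all 11755 genes.

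Regulators of small GTPases, the switches that endothelium uses for junctions and lumens, were mostly higher. Of 28 tested, 24 were higher and 2 lower, with a median difference of 3.41. Rasip1, an effector of Ras and Rap1 needed for vessel lumens, lay at 10.5, 10.04 and 10.1 in fragments and 2.24, 2.05 and 2.08 in rest of brain, at least 73.1-fold higher. Arhgef15, an exchange factor of endothelium, was at least 82.5-fold higher, with 3.62, 3.52 and 2.79 in rest of brain. Rasgrp3, an exchange factor for Ras and Rap, was measured on all arrays at 14.1, 13.9 and 14.0 against 7.40, 6.85 and 6.93, 122.7-fold higher. The genes of the cavernous malformation complex did not move alike. Heg1, its membrane receptor, was higher by 5.37 ± 0.31 and Pdcd10 by 0.84 ± 0.099. Krit1 had a difference of 0.19 ± 0.23 (adjusted p = 0.487) and Ccm2 of 0.37 ± 0.16 (adjusted p = 0.0837, and 0.0387 with the pairs as a block). The lower members were Radil, a Rap effector at 4.41, 4.35 and 4.67 in rest of brain and under 4 in fragments, at least 1.39-fold, and Rgs16 (-0.52 ± 0.19, adjusted p = 0.0443, and 0.0609 with the block).

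Receptors for cytokines and growth factors were higher as a group, 21 of 23 tested, with a median difference of 3.24 and 0 lower. Osmr, which passes the signal of oncostatin M, was largest at 13.7, 13.2 and 13.1 against 5.32, 6.39 and 5.76. Il1r1, the receptor of interleukin-1, lay at 9.30, 9.21 and 9.25 in fragments and under 4 in rest of brain, at least 38.1-fold higher. Its fragment arrays lay close together, unlike those of Tlr4, the receptor of bacterial lipopolysaccharide. Tlr4 was at 8.43, 9.54 and 9.35 in fragments and 2.62, 4.28 and 3.76 in rest of brain (5.55 ± 0.49), lowest on replicate 1 like the microglia markers, whose part in it was not tested. Tgfbr2 was higher by 4.89 ± 0.10 and Tlr3 by 5.18 ± 0.20. The shared chain Il6st (1.93 ± 0.085) and Lifr (1.51 ± 0.15) were higher by less. Ifngr2 (0.032 ± 0.14) and Il17ra (0.48 ± 0.40) were not called, while Ifngr1, the other chain of the interferon gamma receptor, was higher by 2.50 ± 0.19. Without fragments replicate 1, Il17ra was called at 0.95 (adjusted p = 0.00119).

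Secreted factors of vessel cells were called without exception, 32 of 34 higher and 2 lower, with a median difference of 3.41. Vwf, the clotting glycoprotein that endothelium stores, was at 14.2, 13.9 and 13.9 in fragments and 3.78, 3.52 and 4.13 in rest of brain, under 4 on 2 of 3 arrays there. The multimerins Mmrn2 and Mmrn1 were at 14.0, 13.8 and 13.8 and at 11.9, 10.9 and 11.3 in fragments. Mmrn1 was at least 163-fold higher, and Mmrn2 had rest of brain at 4.79, 3.61 and 5.32. Growth factors that endothelium sends to pericytes and smooth muscle were far higher, Pdgfb by at least 139-fold and Edn1, the vasoconstrictor endothelin, by at least 64.6-fold. Egfl7, an endothelial matrix protein, was higher by 6.64 ± 0.18 and Angpt2, the angiopoietin of sprouting vessels, by 3.09 ± 0.15. Members with small differences included Fstl1 (0.80), Htra1 (0.99) and Sparcl1 (1.27). Bmp6 was lower, at 5.29, 5.69 and 6.64 in fragments and 8.72, 8.58 and 8.79 in rest of brain (-2.82 ± 0.34). Bmp4 was lower by less (-0.76 ± 0.22, adjusted p = 0.0203) and lost its call without replicate 1 or 3 of fragments or replicate 1 or 2 of rest of brain (adjusted p = 0.0592 to 0.0700).

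Actin crosslinkers, tropomyosins and actomyosin were higher in 27 of 34 tested members and lower in 2, with a median difference of 2.31. The actins themselves were not called, Actb at 15.8, 15.8 and 15.8 against 15.6, 15.5 and 15.6 (0.19 ± 0.078, adjusted p = 0.0721) and Actg1 with a difference of 0.0069 ± 0.081. After cyclic loess Actb was called higher (0.25, adjusted p = 0.0246). Proteins that bundle, anchor or move actin were higher around them. Capg, an actin-capping protein, was at 9.83, 9.65 and 9.86 against 4.33, 4.89 and 4.70, 35.2-fold higher. Lcp1, the bundling protein of blood cells, was 34.0-fold higher and Myo1c, an unconventional myosin, 20.7-fold. Tagln2 (4.08), Ahnak (3.75), Myh9 (3.36) and Vcl (3.04) were higher as well. The membrane linkers of 1 family differed, with Msn, moesin, higher by 2.93 ± 0.11, Ezr, ezrin, lower at 9.82, 10.4 and 10.1 against 12.4, 12.4 and 12.2 (-2.20 ± 0.17), and Rdx, radixin, at 0.35 ± 0.14 (adjusted p = 0.0670, and 0.0488 with the block).

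Annexins and S100 proteins, families that bind calcium, separated from each other. All 7 annexins tested were higher, from Anxa1 (1.997 ± 0.10) to Anxa3 at 13.2, 13.2 and 13.03 against 8.44, 8.31 and 8.20, 28.3-fold. Anxa6 was 9.86-fold and Anxa4 8.84-fold higher. Of the S100 genes, S100a13 and S100a16 were higher, S100a1 and S100a10 were not called, and 4 were lower. S100b, a glial member, was at 3.68, 5.08 and 3.16 in fragments and 7.96, 7.72 and 6.67 in rest of brain (-3.48 ± 0.57). S100a8 and S100a9, proteins of neutrophils, were at 6.04, 9.10 and 8.20 and 4.02, 6.50 and 4.88 in rest of brain, and at 4.996 to 5.24 and under 4 in fragments. Both lost their call without fragments replicate 2 or rest of brain replicate 3, and S100a9 without fragments replicate 3 (adjusted p = 0.0509 to 0.0652). In the list as a whole 9 of 15 tested were higher, with a median difference of 2.25.

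Lipid uptake and fatty acid handling had no common direction, with 11 of 25 tested members higher, 10 lower and a median difference of 0.57. These are 44% and 40%, against 30.9% and 40.3% of all genes. The higher members include the endothelial surface anchor of lipoprotein lipase, Gpihbp1, at 5.88, 6.48 and 5.44 and at least 3.82-fold. Scarb1, a receptor for high-density lipoprotein, was 9.93-fold higher and Angptl4, an inhibitor of lipoprotein lipase, 8.51-fold. Lpl, the lipase itself, had a difference of 1.01 ± 0.35 (adjusted p = 0.0405) and lost its call without any 1 array other than fragments replicate 1 (adjusted p = 0.0514 to 0.127). Acsl6, a ligase that activates long-chain fatty acids in neurons, was at 10.1, 10.1 and 10.3 in rest of brain and at least 72.0-fold lower. Vldlr, a reelin receptor, was lower (-4.56 ± 0.37), while Lrp8, the other reelin receptor, was higher (2.32 ± 0.20). The carriers Slc27a1 (-2.67 ± 0.15) and Slc27a4 (-0.86 ± 0.083) were lower. Cd36, a fatty acid translocase, was at 3.54, 5.58 and 6.03 against 4.24, 3.0005 and 3.97 and Apoe at 13.9, 14.9 and 14.8 against 14.1, 14.0 and 13.8, and neither was called. Without fragments replicate 1, the array with the lowest microglia markers, both were called (2.07, adjusted p = 0.00653, and 0.88, adjusted p = 0.00282).

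The sodium-potassium pump makes a small group of 7 tested genes. Of these 2 were higher and 4 lower in fragments (28.6% and 57.1%, against 30.9% and 40.3% of all genes). The beta subunits differed in direction, Atp1b3 at 13.5, 13.5 and 13.8 against 12.6, 12.6 and 12.6 (1.01 ± 0.12) and Atp1b1 at 10.3, 10.8 and 10.4 against 11.5, 11.7 and 11.8 (-1.16 ± 0.14), with Atp1b2 lower as well (-1.502 ± 0.21). Among the FXYD proteins, which tune the pump, Fxyd5 was 42.8-fold higher (11.6, 11.4 and 11.5 against 6.09, 6.404 and 5.67) and Fxyd6 24.1-fold lower (6.68, 8.13 and 7.21 against 11.8, 11.8 and 12.2). The alpha subunits were not analysed here.

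Ligands that neural tissue makes for receptors on vessels were mostly lower in fragments. Of 21 tested neural ligands 18 were lower in fragments and 1 higher (background 40.3% lower), with a median difference of -2.92 (-2.51 with members at background held at their bound), and fragments were at background for 6 of them. Wnt7a, a Wnt ligand of neural progenitors that vessels need to form the barrier, was at 9.51, 9.35 and 9.25 in rest of brain and 2.17, 2.17 and 2.17 in fragments, at least 41.4-fold lower. Another probe set of Wnt7a, at 4 or more on all arrays, had a difference of -0.017 (adjusted p = 0.859). Wnt7b, its close relative, was at 2.10, 2.51 and 2.52 against 8.01, 7.59 and 8.05, at least 14.8-fold lower. Sema3a, a repelling guidance cue, was at least 17.7-fold lower and Reln, the glycoprotein of cortical layering, 50.8-fold (5.06, 7.74 and 6.98 against 11.9, 12.4 and 12.5). Vegfa, the growth factor that draws sprouts, was at 5.41, 6.20 and 5.77 against 8.95, 8.87 and 8.24 (-2.90 ± 0.27). Angpt1 had a difference of -1.68 ± 0.36 and Ptn of -1.001 ± 0.092. Tgfb2 was the 1 higher ligand, at 11.6, 10.9 and 11.7 against 10.5, 10.5 and 10.4 (0.96 ± 0.21, adjusted p = 0.00649). Wnt5a (-0.50 ± 0.22, adjusted p = 0.0905) was called lower without fragments replicate 1 (-0.74, adjusted p = 0.00427), and Sema3f was not called (0.016 ± 0.11).

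Eph receptors and ephrins, contact signals used by both axons and vessels, divided by member. All 16 tested were called, 13 lower and 3 higher, with a median difference of -3.29. The largest in the neural direction were Epha3 (5.67, 6.56 and 6.39 against 11.8, 11.6 and 11.9), Efna2 (30.7-fold lower as fitted) and Ephb1 (23.9-fold lower). The fragment arrays of Efna2 were nearly identical at 5.38, 5.37 and 5.38, so its fold may be a bound only. The higher ones were Efna1, at 10.7, 9.93 and 10.3 in fragments and at least 78.1-fold, Epha2 (at least 4.46-fold) and the venous receptor Ephb4 (3.03 ± 0.19). Efnb2, the arterial ligand of Ephb4 that neural cells make too, was at 12.3, 12.1 and 12.3 in fragments and 13.2, 13.1 and 13.2 in rest of brain (-0.91 ± 0.10).

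RNA-binding and splicing regulators showed both directions within single families. Of 32 tested, 21 were lower and 9 higher, with a median difference of -2.30 (-2.18 with those bounds). These are 65.6% lower and 28.1% higher, against 40.3% and 30.9% of all genes. The neuronal Elavl members 2, 3 and 4 were lower (Elavl2 -4.67, Elavl3 -7.33, Elavl4 -5.80), and the broadly expressed Elavl1 was higher by 1.07 ± 0.089, although 3 of its other probe sets were called lower. Celf5 was 89.9-fold and Rbfox1 84.6-fold lower, and all 3 tested Rbfox genes were lower. The muscleblind genes went the other way together, Mbnl1 higher by 2.28, Mbnl2 by 3.09 and Mbnl3 at least 5.29-fold higher. Rbpms, an RNA-binding protein of muscle and vessel wall, was at 11.1, 10.6 and 10.6 in fragments and at least 109-fold higher. Zfp36, which shortens the life of cytokine messengers, was higher by 3.90 ± 0.30. Ptbp1 (0.057 ± 0.15) and Qk (0.27 ± 0.13) were not called, beside a lower neuronal Ptbp2 (-3.37 ± 0.11).

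A neuronal gene was set beside its broadly expressed relative in 41 pairs, of which 33 had both members tested. The neuronal member was lower in 32 pairs, and its relative was higher in 17, lower in 8 and not called in 8. Of the 17 higher relatives, 2 also had a probe set called lower, Elavl1, the partner of Elavl3, and Tmod3, the partner of Tmod2. Median differences were -4.998 (-4.29 with 7 members held at their bound) for neuronal and 0.45 for broad members, and the broad member's difference lay above its partner's in all 33. The pairs were picked for that neuronal expression, so the lower neuronal member describes the choice. Tubb3, the beta-tubulin of neurons, was at 8.19, 8.93 and 8.65 in fragments and 13.7, 13.3 and 14.0 in rest of brain, and Tubb6 at 12.8, 12.4 and 11.9 against 7.23, 7.43 and 7.23, 33.1-fold higher. The G protein subunit Gng3 was lower (-4.998 ± 0.26) and Gng11 higher (4.64 ± 0.13). The membrane fusion protein Snap25 of synapses and its relative Snap23 of other cells had differences of -6.37 and 2.50. Gnao1 and Gnai2, both alpha subunits of inhibitory G proteins, were at -6.41 and 1.18, and the adaptor Apba3 was higher by 1.15, with Apba2 at background in fragments and at least 28.4-fold lower.

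The exceptions were graded. Both members were lower for Rbfox3 and Rbfox2 (-3.93 and -2.88) and for the kinases Mapk10 and Mapk8 (-5.40 and -2.43), although another probe set of Mapk8 was called higher. Nap1l1 (-0.55 ± 0.084), Dync1i2 (-0.33 ± 0.085), Rab6a (-0.36 ± 0.10), Celf1 (-0.36 ± 0.11) and Mapre1 (-0.30 ± 0.076) were lower by small amounts beside neuronal partners with differences of -5.81 to -2.86. Celf1 lost its call with the pairs as a block (adjusted p = 0.0525) and Rab6a without rest of brain replicate 1 (adjusted p = 0.0609). Tcea2, an elongation factor, was the neuronal member without a call (-0.58 ± 0.25, adjusted p = 0.0779), and its partner Tcea1 was lower by a like amount (-0.47 ± 0.088). Without fragments replicate 1 Tcea2 was called (-0.83, adjusted p = 0.00637).

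**Figure D4:**
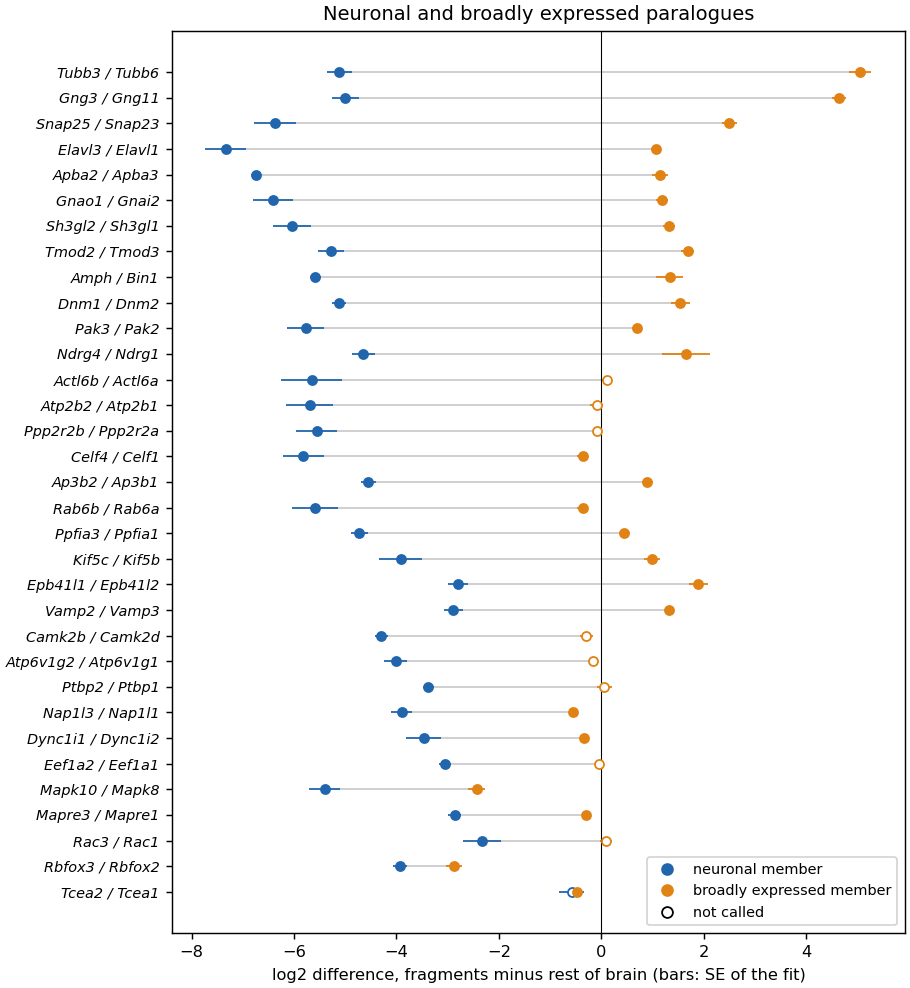
Each row is a pair, with the log2 difference (embryonic fragments minus rest of brain, bars are the SE of the fit) of the neuronal member in blue and the broadly expressed member in orange, open where not called. The blue points have a median of -4.998 and the orange ones of 0.45, and the widest pair is Tubb3 and Tubb6.

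Of 26 factors of cortical excitatory neurons 25 were lower and 0 higher, with a median difference of -4.58. Nr4a3, an activity-linked nuclear receptor, was at 10.1, 10.3 and 10.02 in rest of brain and at least 70.9-fold lower. Pou3f2, a factor of upper-layer neurons, was at 2.91, 4.15 and 3.37 against 9.81, 10.01 and 9.89 and Cux2 at 4.21, 5.83 and 4.56 against 11.1, 11.1 and 11.3, 79.1-fold lower. Replicate 2 was the highest fragment array for both. The nuclear factors Nfib (-1.53 ± 0.13) and Nfia (-1.36 ± 0.12) were lower, and Mef2c, which endothelium also uses, was not called (-0.35 ± 0.26, adjusted p = 0.271).

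Genes of GABAergic neurons and striatum were 14 lower and 3 higher of 17 tested, with a median difference of -5.64 as fitted, and 10 of the 14 had fragments at background. With these held at their bound the median was -4.53. The homeobox factor Isl1 was at 9.005, 8.69 and 8.85 in rest of brain and at least 28.8-fold lower, and the calcium buffer Calb2 at least 25.4-fold. Dlx1, a factor of interneuron precursors, was measured on all arrays at 4.72, 6.45 and 6.30 against 12.2, 12.1 and 12.5, 87.5-fold lower. The 3 higher members are used outside these neurons too. They were Ebf1, a factor of striatum, blood and pericytes, at 11.1, 10.4 and 10.9 against 8.89, 8.74 and 8.97 (1.91 ± 0.20), Maf (1.58 ± 0.23) and Foxp1 (0.64 ± 0.11).

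Of 40 regional factors of diencephalon, midbrain and hindbrain with a probe set, 22 were under the filter. Of the 18 tested 13 were lower and 2 higher, with a median difference of -2.47 (-1.43 with members at background held at their bound). Lhx9 was at least 31.1-fold lower, En2, a factor of the midbrain and cerebellum, at least 17.3-fold and Atoh1, which makes cerebellar granule neurons, at least 15.7-fold (8.11, 8.55 and 7.26 in rest of brain). Irx3 was higher by 1.25 ± 0.28. Zic2 was at 10.4, 8.55 and 9.13 in fragments and 8.30, 7.99 and 6.85 in rest of brain (1.63 ± 0.57, adjusted p = 0.0407), and its call was lost without replicate 1 or 3 of fragments or replicate 2 or 3 of rest of brain (adjusted p = 0.0743 to 0.120). Zic1 (-1.19 ± 0.11) and Zic4 (-2.48 ± 0.22) of the same family were lower.

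Neuropeptides and granins were lower in 12 of 13 tested members, with a median difference of -4.36 (-4.08 with the bounds), and 15 more were under the filter. Sst, somatostatin, was at 7.87, 7.93 and 8.52 in rest of brain and at least 17.24-fold lower. Nxph1, a ligand of neurexins, was 74.9-fold lower and Chgb, a granin of dense-core vesicles, 65.3-fold (4.05, 5.37 and 4.86 against 10.5, 10.6 and 11.2). Grp, gastrin-releasing peptide, had a higher level in fragments, 9.74, 8.70 and 9.29 against 8.51, 8.29 and 8.34 (0.86 ± 0.26, adjusted p = 0.0247), and lost its call without fragments replicate 3 or any 1 array of rest of brain (adjusted p = 0.0531 to 0.0780).

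Of the voltage-gated sodium and calcium channels 17 of 20 tested were lower, with a median difference of -4.01 (-3.41 with the bounds), and fragments were at background for 10. Scn2a, the sodium channel of young axons, lay at 10.4, 10.3 and 10.4 in rest of brain and 3.61, 3.58 and 3.51 in fragments, at least 82.1-fold lower. Cacnb4 was at least 35.9-fold and Cacna1b, the N-type channel of nerve endings, at least 35.4-fold lower. The L-type Cacna1c, which smooth muscle also uses, was lower by less (-2.31 ± 0.17). One auxiliary subunit, Scn4b, was higher, at 6.36, 5.59 and 5.15 in fragments and under 4 in rest of brain, at least 3.25-fold. Inhibitory receptor subunits were lower in 9 of 10, with a median difference of -4.52 (-4.37 with the bounds). Gabrb2 was at least 60.8-fold and Gabrb1 at least 37.8-fold lower. The glycine receptor subunit Glra2 was at 2.58, 4.49 and 2.75 in fragments, over 4 on replicate 2 only, and at 9.86, 10.04 and 10.9 in rest of brain. Gphn, the scaffold of these receptors that other tissues use for molybdenum cofactor synthesis, was level, at 9.95, 9.55 and 9.84 against 9.95, 9.86 and 9.87 (-0.11 ± 0.13, 95% interval -0.42 to 0.20).

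Synaptic vesicle and release proteins were lower in 25 of 28 tested members and higher in 0, with a median difference of -4.44 (-4.19 with the bounds). Syt1, the calcium sensor of release, was at 3.48, 5.04 and 3.48 against 10.6, 10.8 and 11.2, and the vesicular glutamate transporter Slc17a6 at 3.47, 5.05 and 4.05 against 11.02, 11.1 and 11.1. On replicate 2 both were above 4, and on replicate 1 both were below it. Syn1, a synapsin, was at background on all fragment arrays and at least 18.97-fold lower. Nsf, the general fusion ATPase, had a difference of -0.097 ± 0.11, Stx1a of 0.44 ± 0.21 (adjusted p = 0.102) and Rab3a of -0.67 ± 0.25 (adjusted p = 0.0543). Without 1 array each, fragments replicate 3 for Stx1a and rest of brain replicate 3 for Rab3a, they were called (0.63, adjusted p = 0.0230, and -0.90, adjusted p = 0.0163).

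Cell surface adhesion proteins and synapse organizers were lower in all 28 tested members, from Cadm1 (-1.65 ± 0.12) to Cntn2, a contactin of axons at 9.87, 9.55 and 9.69 in rest of brain and at least 52.2-fold lower. Their median difference was -4.63 (-4.45 with the bounds), and 9 had fragments at background. Negr1 was at 3.03, 5.01 and 5.03 against 11.1, 11.1 and 11.3, and Nlgn3, a neuroligin, at least 58.0-fold lower.

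Genes of microtubules and axonal transport were lower in 31 of 35 and higher in 2, with a median difference of -3.47. Dpysl5, a collapsin response mediator of growing axons, was at least 56.3-fold lower, with fragments at 2.61, 2.55 and 2.56. Map6, which stabilizes microtubules, was at 3.78, 4.91 and 3.41 against 10.96, 10.8 and 10.8, and Stmn4, a stathmin of neurons, at 4.04, 7.44 and 6.04 against 12.01, 11.8 and 12.7 (-6.33 ± 0.83). The fragment arrays of Stmn4 spanned over 3 on the log2 scale, with replicate 2 highest. Smaller differences in this list included Tuba1a (-0.44 ± 0.096), Stmn1 (-0.59 ± 0.094) and the dynein heavy chain Dync1h1 (-0.078 ± 0.13, not called). The higher members were Tubb6 and Kif5b, the kinesin heavy chain of most tissues (0.997 ± 0.15).

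General machinery of the nucleus differed by small amounts. RNA polymerase II subunits and general transcription factors had 15 of 27 tested members lower, 3 higher and a median difference of -0.28. These are 55.6% lower and 11.1% higher, against 40.3% and 30.9% of all genes. Every difference lay between -1.31 and 0.88. The count of lower members was 9 without fragments replicate 3 or rest of brain replicate 1. Taf5 was at 7.12, 6.98 and 7.15 against 8.29, 8.401 and 8.50 (-1.31 ± 0.099), Gtf2e1 was lower by a smaller amount (-0.97 ± 0.094) and Gtf2b followed (-0.64 ± 0.13). Polr2a, the largest subunit of the polymerase, was higher, at 9.01, 8.86 and 9.16 against 8.04, 8.07 and 8.28 (0.88 ± 0.12). With the pairs as a block, Gtf2a2 (adjusted p = 0.0643), Gtf2h3 (0.0590), Polr2c (0.0799), Polr2d (0.0506) and Taf1 (0.0513) lost their call and Taf12 gained one (0.0376). Nuclear pore proteins had 11 of 27 lower and 7 higher with a median difference of -0.12, equal to that of all genes. Their shares of 40.7% and 25.9% were near those of all genes. Ndc1, which anchors the pore in the membrane, was lower (-1.31 ± 0.14), although another probe set of it was called higher. Nup43 (-1.28 ± 0.15) and Nup107 (-0.86 ± 0.10) of the pore's outer ring were lower too, while Nup214 of the cytoplasmic face was higher (0.81 ± 0.093). Nup153 (adjusted p = 0.0732), Nup205 (0.0893) and Ranbp2 (0.100) lost their call with the block.

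Of 6596 genes with a mean of at least 8 in both groups, 1602 (24.3%) had a 95% interval of the difference within 0.5 either way. The 8 brightest were mostly ribosomal. They lay near the top of the range of the arrays, and 7 of the 8 were read from probe sets whose identifiers mark shared probes, against 39.6% of the 1602 and 27.0% of all genes, and the part of either in these small differences was not tested. Rps29 was at 16.4, 16.4 and 16.4 in fragments and 16.4, 16.4 and 16.4 in rest of brain (difference 0.051, 95% interval -0.13 to 0.24). Rps28 differed by 0.012 (-0.17 to 0.20), Rplp0 by -0.041 (-0.23 to 0.15), Rpl35 by -0.074 (-0.33 to 0.18) and Rpl13a by -0.065 (-0.26 to 0.13). Rps20 was level on this probe set (0.13), while a probe set of it without shared probes was lower (-1.77). Akr1a1, an aldehyde reductase, differed by 0.19 (0.0048 to 0.38). Hmgn1, a nucleosome-binding protein, was at 15.9, 15.9 and 15.9 against 16.1, 16.2 and 16.2 and shows that a small difference can still be called (adjusted p = 0.0197, and 0.0600 with the block), as it was for 99 of the 1602.

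Different probe sets of 1 gene did not always tell the same. Of 5115 genes with several tested probe sets, 2408 had every probe set called in 1 direction, and 321 (6.28%) had probe sets called in both directions. For 213 of these, neither the probe set with the highest difference nor that with the lowest had an identifier that marks shared probes. Probe sets of a gene can read different ends or isoforms, or other transcripts that share sequence, and which of these applied was not tested. Map4, a microtubule-associated protein of most tissues, had 1 probe set at 9.14, 8.75 and 7.62 in fragments against 4.16, 4.71 and 4.48 in rest of brain, and another at 6.32, 6.49 and 5.37 against 9.97, 9.88 and 10.1. Its brightest probe set differed by 0.99 ± 0.10. Tln1, talin, which links integrins to actin, had differences of 3.33 ± 0.093 and -3.24 ± 0.23 on its brightest pair of probe sets. Of the probe sets of Tmod3, a cap of actin filaments, 4 were higher by 1.68 to 2.53 and 1 was lower, at 2.18, 2.18 and 2.12 in fragments and 6.93, 6.83 and 7.14 in rest of brain. Cxcl12, a chemokine of vessels and meninges, was called higher by 4.06 ± 0.090 on 1 probe set and lower on the other (-1.11 ± 0.18). The receptor phosphatase Ptprk ranged from -4.62 to 3.76 over 6 probe sets, Bicd2 from -2.25 to 4.72, Ccser1 from -6.07 to 0.71, Trim37 from -4.67 to 1.72 and Pdlim7 from -1.89 to 4.29.

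**Figure D5:**
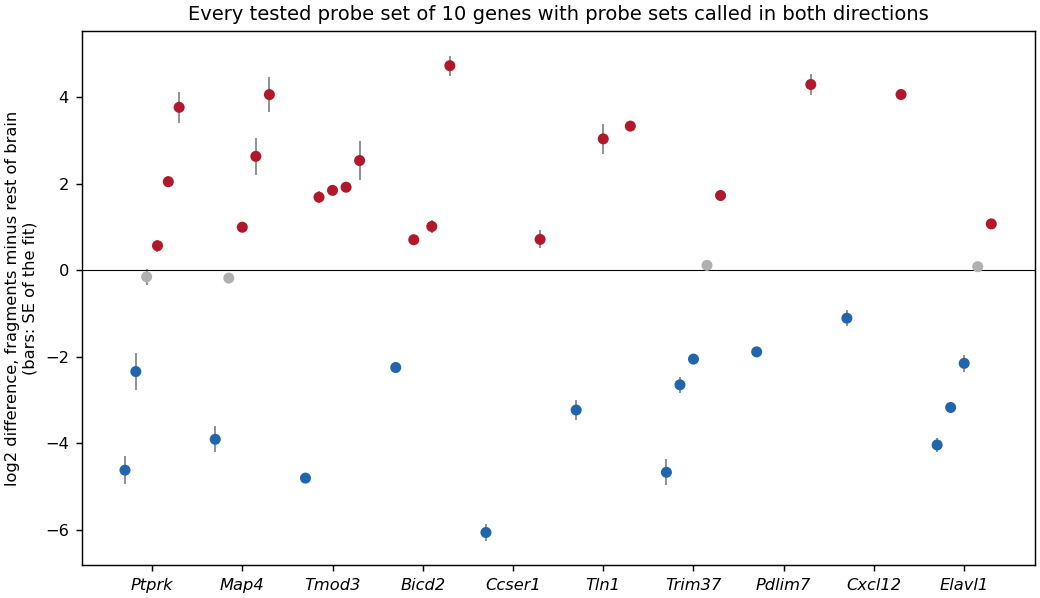
Each point is 1 tested probe set of the gene named below it, with its log2 difference between embryonic fragments and rest of brain (bars are the SE of the fit), red where called higher, blue where called lower and grey where not called. The genes are the 8 with the largest gaps and no shared-probe identifier at either end, plus Cxcl12 and Elavl1. Ptprk ranges from -4.62 to 3.76.

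A few calls rested on arrays that overlapped. Of 8369 called genes, 25 had overlapping arrays or a pair of the other sign. The largest were Parvg, a parvin of blood cells, at 5.12, 7.92 and 8.03 in fragments and 3.62, 4.003 and 5.55 in rest of brain, and Arhgap9, a GTPase regulator of blood cells, at 6.85, 8.68 and 8.57 against 6.92, 6.07 and 6.17. In both, fragments replicate 1 was the low array, as for the microglia and macrophage markers, whose part was not tested. Without replicate 2 or 3 of fragments or replicate 2 of rest of brain neither was called (adjusted p = 0.0938 to 0.118). The same held for Parvg without rest of brain replicate 1 (adjusted p = 0.126) and for Arhgap9 without rest of brain replicate 3 (0.0980) and with the block (adjusted p = 0.0682). The noncoding Snhg5 followed its pairs more than its groups, at 10.4, 9.42 and 11.01 in fragments and 11.8, 10.9 and 12.4 in rest of brain. Each pair differed in the same direction, but fragments replicate 3 lay above rest of brain replicate 2 (-1.42 ± 0.52, adjusted p = 0.0482). Its call ended without replicate 1 or 2 of fragments or replicate 1 or 3 of rest of brain (adjusted p = 0.0889 to 0.147).

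Microvascular fragments of adults, aged 1 year, of a mixed C57/SV129 background and both sexes, were measured on 3 further arrays and serve here as a description only, since strain, age and extraction kit differ. Of the 1394 genes at least 4-fold higher in embryonic fragments, 1316 (94.4%) were at 4 or more on all adult arrays. Of the 1760 at least 4-fold lower ones, 957 (54.4%) were, and 672 (38.2%) were under 4 on all. The share over all tested genes is not given here. Picked by their difference, these sets also differ in embryonic fragment level (medians 10.2 and 4.72), and its part in the shares was not tested. Apln was at 6.39, 5.30 and 6.39 on the adult arrays and Aplnr at 8.54, 9.52 and 11.1, and Mmrn1 at 3.18, 4.31 and 3.39, below the embryonic fragments in each case. Over the 1394 genes the adult arrays all lay above the 3 embryonic fragment arrays for 453 and below for 500, and the median levels were 10.06 and 10.2. Abcb1a was at 15.3, 15.1 and 15.1. For the 1760 lower genes the median level was 4.80 in adult and 4.72 in embryonic fragments, against 8.96 in rest of brain. Some neural genes low or at background in embryonic fragments had adult levels near or above those of embryonic rest of brain, such as Acsl6 at 10.4, 9.87 and 10.4, Chgb at 10.3, 9.46 and 10.9 and S100b at 10.8, 9.70 and 11.1.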

How the data were processed

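Total RNA of 3 embryonic fragment and 3 rest of brain samples was extracted with a kit for small amounts and made into biotinylated cRNA by a small-sample amplification, per the labels' protocols. The authors deposited log2 values, 1 per probe set and array, and the submitters' processing notes name GCRMA 2.6.0 and R 2.4.1. That the scale is log2 was read from the range of the values. GCRMA corrects each probe for background by base composition and sets the arrays' distributions equal, so a change in total RNA per cell cannot be seen. Medians of the 6 arrays over the 45101 probe sets lay between 3.60 and 3.67. For arrays, their number limits the precision. Scanner files, scan dates and detection calls were not used here. No 2 arrays were identical, and 0 columns of the table were left out.

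The platform table names 1 gene for 34958 probe sets, of which 13 are controls and were left out, and several genes for 932, and 9211 are unnamed here. Names and spans came from a RefSeq table of GRCm38.p6. The fit used lmFit and eBayes of limma 3.58.1 (R 4.3.3) on the 6 arrays, 2-sided, without a block and with 6.07 degrees of freedom, and Benjamini-Hochberg adjustment was run over 20108 probe sets. Of these, 5646 carry identifiers that mark probes shared between transcripts. The script was tested on simulated data.

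Same-numbered samples were checked for pairing. Their deviations from the group means correlated at r = 0.149, 0.190 and 0.261 across probe sets, each over 0.1, and differently numbered ones at -0.144 to -0.031. Deviations cancel out within a group, so positive values for same numbers push the others down, and the negative values are no separate support. The numbers were taken to pair the samples, and the fit with the replicate number as a block was an alternative.

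The groups compared, gene lists, pairs of relatives and markers were chosen with earlier results of these data known. Genes were named by rule. Each direction gave the 10 called genes with the largest difference among those measured on all 6 arrays without overlap of the groups. It also gave the 10 brightest with the other group at background. From each list came the 3 largest called members in the direction most took and the largest in the other. The rule also took the 6 widest pairs with every exception, the 8 widest gaps between probe sets, the 8 brightest at like level and the 3 largest calls with overlap. Other genes named were picked from the lists after their values were seen.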

Additional observations from a re-analysis of the deposited data

How the results depend on the processing

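Under the alternatives that kept the probe sets, 0 of the 13967 probe set calls changed direction, and 12756 to 13910 were kept. Leaving out each array in turn gave 5807 to 6152 higher and 7016 to 7339 lower probe sets. It gave 9 to 14 lower members for RNA polymerase II and the general transcription factors, against 15, with 9 without embryonic fragments replicate 3 or rest of brain replicate 1. The fit with the replicate number as a block called 6218 probe sets higher and 7445 lower. Among list members, paired relatives and named genes it changed no other call than those given with the results, apart from Acsl3, which was lost (adjusted p = 0.0921), and Camk2d, which was gained (0.0483). After cyclic loess 47.9% of calls were higher, against 45.6%, and the median difference over probe sets was -0.027 against -0.076. With array weights Fxyd2, called lower in the main values, was not called (adjusted p = 0.0571), nor was it without fragments replicates 1, 2 or 3 or rest of brain replicates 1 or 3 (0.0684 to 0.118).

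Reading each gene from its second brightest probe set covers only genes with several and gave 1618 higher and 1843 lower genes. Counts of higher members were then 16 for endothelial transcription factors, 11 for cytokine and growth factor receptors, 16 for secreted factors, 5 for lipid handling, 13 for actin genes and 3 for annexins and S100 proteins. Counts of lower members were 8 for Eph receptors and ephrins, 3 for neural ligands, 1 for the sodium-potassium pump, 11 for cortical and 4 for GABAergic genes, 4 for regional factors, 1 for neuropeptides, 8 for sodium and calcium channels, 15 for synaptic vesicle proteins, 17 for adhesion proteins, 1 for RNA polymerase II and 4 for nuclear pore proteins. Without probe sets of shared-probe identifiers the counts were 7 for lipid handling, 5 for annexins and S100 proteins and 2 for the pump. With 4 or more required on all arrays, which removes genes at background in 1 tissue, lower members were 10 for neural ligands, 4 for GABAergic genes, 3 for regional factors, 6 for neuropeptides, 5 for channels, 3 for inhibitory receptors, 15 for synaptic vesicle and 17 for adhesion proteins, and 10 pairs had the neuronal member lower and the broad one higher.

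The sign turned on the second probe set for Atp2b1 (0.27), Cux1 (0.052), Cxcl12 (-1.11), Fmr1 (0.0015), Mapre1 (0.026), Ndc1 (1.21), Nr2f2 (-0.0945), Nup155 (1.00), Nup85 (-0.42), Ppfia1 (-0.012), Seh1l (1.52), Syngr1 (0.57), Taf10 (-1.71), Tcea1 (0.21), Tln1 (-3.24), Tuba4a (-0.90) and Tubb5 (0.094). Without shared-probe identifiers it turned for Mapre1 (0.026), Rps20 (-1.77), Seh1l (1.52), Tpm3 (-0.0090), Tuba4a (-0.90) and Tubb5 (0.094). The cause was not tested, and several of these values lie near 0.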
